A study of Homo sapiens with 16 samples.

Results

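A set of 9 genes that encode secreted signalling proteins of the transforming growth factor beta (TGF-beta) superfamily, or proteins that bind them, were followed through 16 RNA-seq libraries of 2 human cancer cell lines. The genes were taken by symbol, as 9 of the 26485 genes in the count table: the activin subunits INHBA and INHBB, the bone morphogenetic proteins BMP2 and BMP4, the ligands TGFB1 and TGFB2, and the follistatin genes FST, FSTL1 and FSTL3. INHBB was chosen for its difference between the lines and FSTL1 for its response to siRNA, that is, both were chosen by their measured fold changes, so for INHBB between the lines and for FSTL1 in the siRNA comparisons of both lines the values are given as a description with no test. The other 7 were taken as family members.

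PC3 is a prostate cancer cell line and HeyA8 an ovarian cancer cell line, both labelled as wild type. In each line, cells were mock-treated or transfected with siNT1 (a control siRNA that is not toxic), with siGGGGGC (an siRNA built around a toxic 6-base seed, called siMxy in the sample titles) or with siCAG, whose sequence neither the labels nor the study's text gives. The labels give an siRNA dose of 1 nM, and total RNA was taken after 24 or 48 h. The study's methods give a higher dose, and which dose these cells received is not settled here. Every line, treatment and time had 1 library, so the 24 and 48 h libraries were the 2 replicates of a condition and the spread between replicates includes the time course, apart from the change shared by all treatments that the fits take up in a term for time. By the study's methods the cells of the later time came from other wells of the transfected plates, and no source used here describes the wells as separate experiments, so p-values measure only the spread between these libraries, which may be technical. Between 27937092 and 29971612 reads were counted per PC3 library (median 28520015) and between 29128446 and 31790209 per HeyA8 library (median 30537650).

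The line labels were checked against marker genes. HOXB13, a homeobox gene of the prostate, had a mean of 230 CPM (reads scaled to a normalized library size of 1e+06) in PC3 cells, while KLK2 and KLK3, the kallikrein genes of differentiated prostate cells, were at 0 in every library. PAX8, a transcription factor of the Müllerian lineage, had a mean of 159 CPM in HeyA8 cells and at most 5.50 CPM as the mean of any PC3 group. The other 4 genes of that list did not set the lines apart in the same way: the group means of WT1 were 8.25 to 17.2 CPM in HeyA8 and 8.43 to 11.3 CPM in PC3 cells, SOX17 and EMX2 were at most at 0.811 and 0.0181 CPM in any group, and MUC16 reached 0.0865 CPM in HeyA8 and 0.58 CPM in PC3 groups. The summed level of 4 leukocyte genes was 0.25 to 1.91 CPM in PC3 and 0.0376 to 0.869 CPM in HeyA8 libraries, and that of 4 fibroblast genes was 1.47 to 4.68 and 0.194 to 1.01 CPM, so these defining genes were low in both lines. That of 3 endothelial genes was 1.47 to 4.67 CPM in PC3 and 3.98 to 12.1 CPM in HeyA8 libraries, with PECAM1 the most abundant in PC3 cells (mean 3.22 CPM) and CDH5 in HeyA8 cells (mean 6.77 CPM), where it was not near 0.

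Some libraries stood apart from the rest of their line. Measured as the root mean square difference of log2 CPM over genes, the median distance of a HeyA8 library to the other 7 was 0.475 to 0.531 for the mock and siNT1 libraries and for siGGGGGC at 24 h, against 0.813 for siGGGGGC at 48 h and 1.09 and 1.25 for siCAG at 24 and 48 h. The siCAG libraries of HeyA8 cells also differed from each other by 1.09. In PC3 cells the siGGGGGC library at 48 h was at 0.934 and the other 7 were between 0.559 and 0.737.

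As background, activins, BMPs and TGF-betas are made as precursors, are cut and secreted as dimers, and bind pairs of type I and type II receptor kinases. Activin and TGF-beta receptors pass the signal through SMAD2 and SMAD3, and BMP receptors through SMAD1, SMAD5 and SMAD9, with SMAD4 as the shared partner. Follistatin and FSTL3 bind activins outside the cell and block them, latent TGF-beta is held in the matrix by LTBP proteins, and SMAD6 and SMAD7 are feedback inhibitors inside the cell. Activin and TGF-beta can slow the growth of epithelial cells and shape the matrix around tumours.

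The guide strand of siGGGGGC carries the seed GGGGGC, and the 6 bases that pair with it are GCCCCC. Messages with GCCCCC in the 3′ untranslated region (3′ UTR) are therefore the ones an siRNA acting like a microRNA could bind, and the letters were searched in the transcript strand of the longest annotated 3′ UTR (GENCODE release 44, hg38). Of the 9 genes, 5 held them: INHBA, INHBB and TGFB1 had 1 site each, FSTL1 had 2 and FSTL3 had 3. BMP2, BMP4, TGFB2 and FST had 0. Among all tested genes with a 3′ UTR, 32.6% of 12681 in PC3 and 32.3% of 11795 in HeyA8 cells had at least 1 site, and 14.4% and 14.1% had more than 1. A match is only a match of letters. The sites are printed 5′ to 3′ on the transcript strand with the matched bases in capitals, and the coordinates are those of the capitals:
INHBA, chr7:41687956-41687961, minus strand: cttttttgtGCCCCCtcccacttc
INHBB, chr2:120349936-120349941, plus strand: cttcttccaGCCCCCgcgggaacg
TGFB1, chr19:41330995-41331000, minus strand: ccccgccccGCCCCCgctgccttg
FSTL1, chr3:120396103-120396108, minus strand: aacccagatGCCCCCaccctgcca
FSTL1, chr3:120396064-120396069, minus strand: ccatagttgGCCCCCctagcttcc
FSTL3, chr19:681742-681747, plus strand: gtgcccgagGCCCCCcatcatccc
FSTL3, chr19:682606-682611, plus strand: gcccagtgtGCCCCCtgggaaagg
FSTL3, chr19:683259-683264, plus strand: cctcctccaGCCCCCaggcagtgc

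In the count table the genes stood at chr7:41689003-41703108 (INHBA), chr2:120346143-120351807 (INHBB), chr20:6768098-6780263 (BMP2), chr14:53949736-53956836 (BMP4), chr19:41330531-41353933 (TGFB1), chr1:218345334-218444619 (TGFB2), chr5:53480434-53486474 (FST), chr3:120394214-120451071 (FSTL1) and chr19:676389-683392 (FSTL3), all on hg38. The INHBA site lay beyond the end of the gene as it was counted, in the longer 3′ UTR of the annotation.

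Per gene length, FSTL1 and INHBB were the highest of the 9 genes in PC3 cells, with medians over 8 libraries of 158.8 RPKM (CPM per kilobase of counted exons; range 88.8 to 292.3) and 156.5 RPKM (118.9 to 217.5). FST followed with a median of 87.1 RPKM (40.1 to 113.8). INHBA, TGFB1 and FSTL3 lay together at 23.8, 18.5 and 18.4 RPKM, and their ranges overlapped. TGFB2 had a median of 7.17 RPKM (1.89 to 14.1), BMP4 of 0.916 (0.549 to 2.03) and BMP2 of 0.204 (0.039 to 0.348). FST overlapped the range of FSTL1 but not that of INHBB, and BMP4 and BMP2 did not overlap.

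In HeyA8 cells FSTL1 was again at the top, with a median of 160.3 RPKM (80.1 to 438.8), and INHBA (24.6), TGFB1 (23.9) and FSTL3 (16.5 RPKM) again formed an overlapping middle group. The rest of the order was another one. BMP2 came next with 5.13 RPKM (1.01 to 11.7), and FST was at 0.8005 RPKM (0.5996 to 1.28). TGFB2 (0.0886 RPKM), INHBB (0.0283) and BMP4 (0.0199) were near 0, with overlapping ranges.

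**Figure D1:**
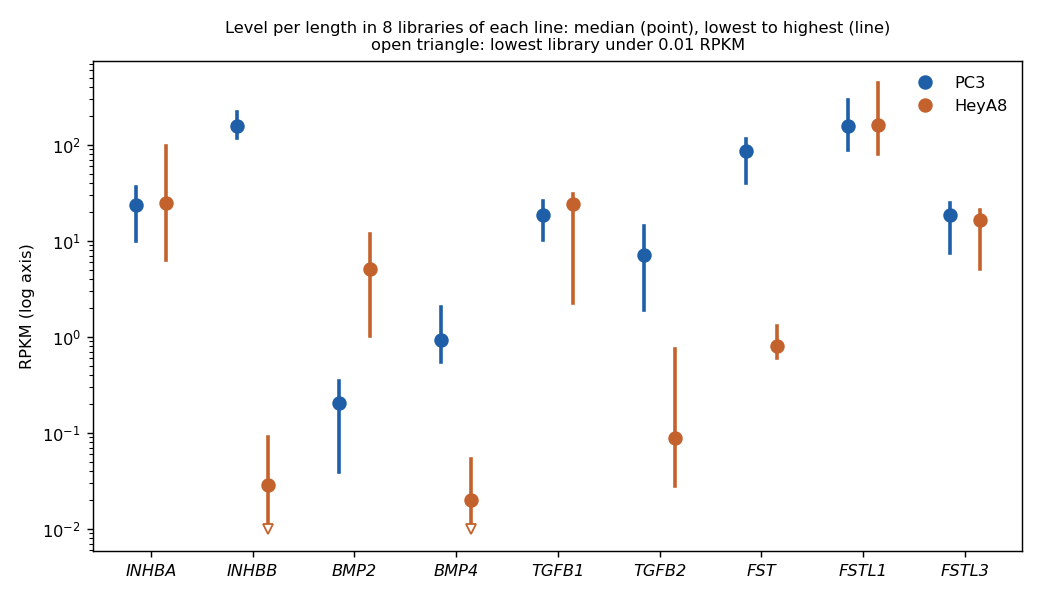
Level per gene length (RPKM, log axis) of the 9 genes in 8 PC3 (blue) and 8 HeyA8 libraries (orange), as the median (point) and the range (line). FSTL1, INHBA, TGFB1 and FSTL3 have medians of the same order in both lines, INHBB, BMP4, TGFB2 and FST sit higher in PC3 cells and BMP2 sits higher in HeyA8 cells.

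The contrast of PC3 with HeyA8 was read from the mock-treated cells in a fit over all 16 libraries. Across genes, 29% of 15887 were called higher in PC3 and 22% lower, that is, had an adjusted p under 0.05 by edgeR's quasi-likelihood test. BMP4 was below the count filter within HeyA8 cells and entered this fit only through PC3, where it is high, so no test is read for it. Of the genes other than INHBB and BMP4, TGFB2 and FST were called higher in PC3 cells and BMP2 lower, while INHBA, TGFB1, FSTL1 and FSTL3 were not called. These libraries are of bulk cells, in which fewer cells that make a message and less message per cell cannot be told apart.

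INHBB, which encodes the subunit of activin B, had 455.0 and 488.8 CPM in the PC3 mock libraries at 24 and 48 h and 380.8 to 696.7 CPM over all 8 PC3 libraries. In HeyA8 cells it had 0 to 8 reads per library, 24 reads in all 8, and 2 libraries were at 0. The lowest PC3 library was thus above 380 CPM and the highest HeyA8 library at 0.29 CPM, and no treatment brought INHBB up in HeyA8 cells by more than a few reads. The mock libraries held 31467 reads in PC3 against 5 in HeyA8, a ratio of 5210 with a 95% counting interval (exact binomial) of 2230 to 16100, which covers counting error only. INHBB ranked 49 of 15887 genes by its PC3 over HeyA8 fold change, the contrast it was chosen for.

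Follistatin, the secreted activin blocker encoded by FST, went the same way. It had 444.2 and 366.5 CPM in the PC3 mock libraries and 3.84 and 2.68 CPM in those of HeyA8, and over all treatments 157.7 to 447.5 CPM in PC3 against 2.36 to 5.03 CPM in HeyA8 libraries. The log2 fold change was 6.95 (standard error, SE, 0.463, edgeR adjusted p = 8.58e-07), and the read ratio was 124 (95% counting interval 107 to 144). FST ranked 599 from the top.

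TGFB2 had 46.8 and 22.3 CPM in PC3 mock cells and 1.05 and 0.326 CPM in HeyA8 mock cells, a log2 fold change of 5.55 (SE 0.948, edgeR adjusted p = 0.000606). BMP4 had 3.07 and 2.996 CPM against 0.109 and 0.109 CPM, or 202 reads against 6. Its log2 fold change of 4.84 (SE 0.555) is given as a description with no test. For both genes the lowest PC3 library was above the highest HeyA8 library over all treatments. In HeyA8 cells BMP4 never passed 8 reads.

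BMP2 showed the opposite order. It had 11 reads in both PC3 mock libraries together (0.123 and 0.206 CPM) and 1065 in those of HeyA8 (13.4 and 25.2 CPM). The log2 fold change of PC3 over HeyA8 was -6.79 (SE 0.752, edgeR adjusted p = 2.81e-05), and HeyA8 over PC3 was 117-fold by reads (95% counting interval 65 to 235). The highest PC3 library, 1.10 CPM after siCAG, was below the lowest HeyA8 library, 3.19 CPM after siGGGGGC.

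The other 4 genes were not called between the mock cells of the lines. INHBA, the subunit of activin A, differed by -0.26 on the log2 scale (SE 0.552, adjusted p = 0.719) and TGFB1, the most widely made TGF-beta, by -0.22 (SE 0.349, adjusted p = 0.622). FSTL1, a secreted glycoprotein with a follistatin domain, differed by 0.17 (SE 0.376, adjusted p = 0.731) and FSTL3 by -0.37 (SE 0.401, adjusted p = 0.47). The calls for BMP2, TGFB2 and FST were kept in all 9 alternative fits, but the size of the difference was not well fixed. On leaving out 1 mock library the log2 fold change ran from 4.48 to 7.21 for TGFB2, from -7.48 to -6.20 for BMP2 and from 6.53 to 7.45 for FST. That of BMP4, read as a description, ran from 3.90 to 5.63. With only the 4 mock libraries and 1 shared time term, INHBA, TGFB1 and FSTL3 were also called lower in PC3, at -0.27, -0.27 and -0.37, in a fit that called 5377 genes lower over the whole table, against 3490.

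**Figure D2:**
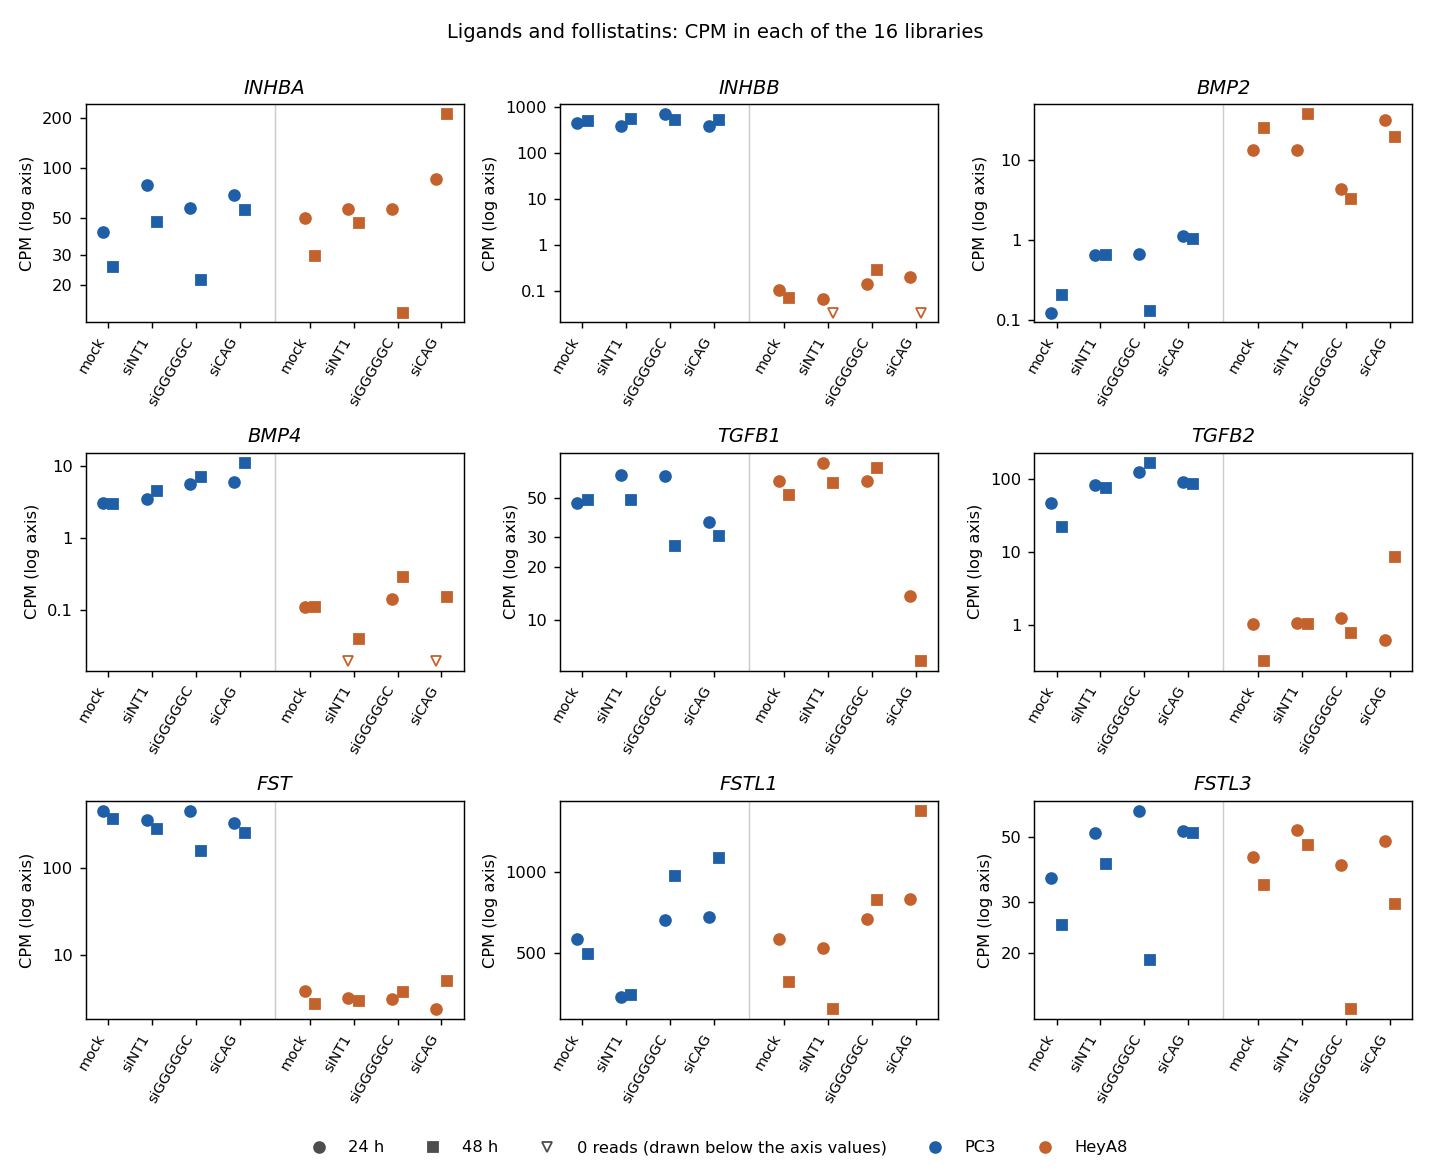
CPM (log axis) of each gene in each of the 16 libraries, by line and treatment, with circles for 24 h and squares for 48 h; open triangles mark libraries with 0 reads. The lines do not overlap for INHBB, BMP2, BMP4, TGFB2 and FST, and TGFB1 is at its lowest in the HeyA8 siCAG libraries.

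The first treatment question was what siGGGGGC did to these messages against the control siRNA siNT1. In PC3 cells 3.67% of 15136 genes were called higher and 6% lower, and of the 8 genes other than FSTL1 0 were called. Over all genes 4864 had an unadjusted p under 0.05, and DESeq2 called 1135 higher and 1684 lower. Of the 8 genes 3 had an unadjusted p under 0.05 (INHBA, BMP4 and TGFB2), and DESeq2 called 2 of these, INHBA lower and TGFB2 higher. In HeyA8 cells edgeR called 0 of 13872 genes higher (0%) and 0 lower (0%), with 1352 at an unadjusted p under 0.05, and DESeq2 called 55 higher and 263 lower; of the 6 tested genes of the family other than FSTL1 2 had an unadjusted p under 0.05, and DESeq2 called 1, BMP2. The siCAG libraries of HeyA8 cells, which stood apart, entered that fit.

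Of the ligands in PC3 cells, INHBA had 79.5 and 47.8 CPM after siNT1 and 57.3 and 21.5 CPM after siGGGGGC at 24 and 48 h. Its log2 fold change was -0.80 (SE 0.24, edgeR adjusted p = 0.07), lower at both times with overlapping groups. TGFB2 had 83.2 and 75.0 CPM after siNT1 and 124.8 and 166.6 CPM after siGGGGGC, so the groups did not overlap, and its log2 fold change was 0.88 (SE 0.304, edgeR adjusted p = 0.0944). BMP4 had 3.46 and 4.42 CPM after siNT1 and 5.59 and 6.94 CPM after siGGGGGC, also without overlap, at 0.65 (SE 0.255, edgeR adjusted p = 0.127).

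The remaining PC3 ligands were further from the threshold. INHBB had 380.8 and 555.3 CPM after siNT1 and 696.7 and 520.0 CPM after siGGGGGC (log2 fold change 0.38, SE 0.216). TGFB1 had 67.4 and 49.0 CPM after siNT1 and 66.4 and 26.5 CPM after siGGGGGC, nearly equal at 24 h and lower at 48 h (-0.42, SE 0.289). BMP2 had between 4 and 37 reads in every PC3 library and gives no usable difference.

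FSTL1 stood highest after siGGGGGC and siCAG and lowest after siNT1. In PC3 cells it had 560.0 and 495.8 CPM in mock, 341.0 and 347.3 after siNT1, 659.8 and 963.5 after siGGGGGC and 679.0 and 1123 after siCAG. The siGGGGGC and siCAG libraries did not overlap those of siNT1 or mock. The fitted log2 fold changes against siNT1 were 1.19 (SE 0.228) for siGGGGGC and 1.33 (SE 0.229) for siCAG, and that of siNT1 against mock was -0.62 (SE 0.226). With mock as the control the 2 values were 0.57 and 0.71. All of these share libraries and describe the pattern for which FSTL1 was chosen.

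The HeyA8 values of FSTL1 are given in the same way, as a description. It had 560.8 and 389.2 CPM in mock, 520.3 and 307.5 after siNT1, 670.5 and 788.6 after siGGGGGC and 792.1 and 1685 after siCAG. The 4 libraries of siGGGGGC and siCAG were all above the 4 of mock and siNT1, by log2 fold changes against siNT1 of 0.78 (SE 0.45) for siGGGGGC and 1.46 (SE 0.464) for siCAG. The siCAG value was 2.14 without the 24 h siCAG library and 0.603 without the 48 h one, and it was 1.98 without the 24 h and 0.92 without the 48 h siNT1 library. The siGGGGGC value was 1.36 without the 24 h and 0.305 without the 48 h siNT1 library.

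The activin blockers FST and FSTL3 gave no call after siGGGGGC. FST in PC3 cells had 354.5 and 281.9 CPM after siNT1 and 447.5 and 157.7 CPM after siGGGGGC, on either side of the control. FSTL3 in PC3 cells had 51.7 and 40.6 CPM after siNT1 and 61.7 and 18.9 CPM after siGGGGGC (log2 fold change -0.36, SE 0.343, adjusted p = 0.496). In HeyA8 cells FSTL3 had 53.0 and 47.1 CPM after siNT1 and 40.2 and 12.8 CPM after siGGGGGC (-1.11, SE 0.384, unadjusted p = 0.0242, adjusted p = 0.454). The HeyA8 value was -1.83 without the 24 h and -0.52 without the 48 h siGGGGGC library.

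The 48 h library after siGGGGGC was the lowest of 8 for both INHBA and FSTL3 in both lines. INHBA was at 21.5 CPM there in PC3 cells and 13.7 CPM in HeyA8 cells, with 57.3 and 57.2 CPM at 24 h. FSTL3 was at 18.9 and 12.8 CPM, with 61.7 and 40.2 CPM at 24 h. These are single libraries, those at 48 h stood apart from the rest of their line, and their part in the result was not tested. Without the 24 h siGGGGGC library, 5 of the 8 genes other than FSTL1 were called in PC3 cells, INHBA, TGFB1, FST and FSTL3 lower and TGFB2 higher, in a fit that called 1591 genes higher and 2111 lower over the whole table, against 555 and 908 with it. Without the 48 h siGGGGGC library 0 of the 8 were called, in a fit that called 81 higher and 536 lower.

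In HeyA8 cells the ligand with the largest fitted difference after siGGGGGC was BMP2. It had 13.2 and 37.0 CPM after siNT1 and 4.35 and 3.19 CPM after siGGGGGC, while mock cells had 13.4 and 25.2 CPM and siCAG cells 31.4 and 19.0 CPM. Both siGGGGGC libraries were below the other 6. The lineage marker PAX8 was lower in these libraries as well, with a mean of 76.1 CPM against 166.2 after siNT1 and 174.6 in mock cells. WT1, of the same list, had 14.1 CPM against 16.05 after siNT1. The part of the markers in the result was not tested. The log2 fold change was -2.66 (SE 0.577, unadjusted p = 0.00269, edgeR adjusted p = 0.243), so the test over all genes was not passed. It was passed by DESeq2 (adjusted p = 0.000368), with only the 4 libraries compared (1.84e-06) and without both siCAG libraries (0.0279), and over 11 alternatives the adjusted p ran from 1.84e-06 to 1. The log2 fold change was -3.35 without the 24 h and -1.82 without the 48 h siNT1 library. BMP2 has no GCCCCC in its 3′ UTR and 1 in its longest coding sequence. INHBA, INHBB, BMP4, TGFB1 and FST also have 1 there, and TGFB2, FSTL1 and FSTL3 have 0. No share over all genes is given for coding sequences.

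The remaining HeyA8 genes were not called after siGGGGGC. INHBA had 56.5 and 47.1 CPM after siNT1 and 57.2 and 13.7 CPM after siGGGGGC (log2 fold change -0.69, SE 0.701), and the value was -2.02 without the 24 h and 0.17 without the 48 h siGGGGGC library. TGFB1 had 79.5 and 61.2 CPM after siNT1 and 62.7 and 74.0 CPM after siGGGGGC (-0.03, SE 0.328). TGFB2 was near 1 CPM in all 4 libraries (-0.04, SE 1.13), FST differed by 0.12 (SE 0.441), and INHBB and BMP4 were below the count filter and were not tested. With only the 4 libraries compared INHBA (-0.89, adjusted p = 0.0325) and FSTL3 (-1.16, 0.00292) were called as well, in a fit that called 411 genes higher and 769 lower over the whole table.

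Of the 5 genes with GCCCCC, FSTL1 is left out here because it was chosen for its siRNA response. In PC3 cells after siGGGGGC the log2 fold changes of the other 4 were -0.80 (INHBA), -0.42 (TGFB1), -0.36 (FSTL3) and 0.38 (INHBB), and 0 of them were called by edgeR, which called 3.67% of all genes higher and 6% lower, while DESeq2 called INHBA lower (adjusted p = 0.0217). In HeyA8 cells, where edgeR called 0% of genes in either direction, the values were -0.69 (INHBA), -0.03 (TGFB1) and -1.11 (FSTL3, unadjusted p = 0.0242, adjusted p = 0.454), and INHBB was not tested. In PC3 cells FSTL3, with the most sites, was at 0.252 at 24 h and -1.08 at 48 h.

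siCAG gave the clearest change of a ligand. In HeyA8 cells 2.88% of 13872 genes were called higher and 4.93% lower after siCAG against siNT1, and 1 of the 6 tested genes of the family other than FSTL1 was called, TGFB1, which fell. TGFB1 had 62.3 and 51.7 CPM in mock cells, 79.5 and 61.2 after siNT1, 62.7 and 74.0 after siGGGGGC and 13.8 and 5.82 after siCAG. The 2 siCAG libraries were far below the other 6, which did not go under 51 CPM. The log2 fold change was -3.04 (SE 0.356, edgeR adjusted p = 0.00872), or 8.25-fold lower.

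TGFB1 was called after siCAG in HeyA8 cells in 8 of 10 alternatives, at log2 fold changes of -3.61 to -2.61. Against mock the value was -2.74 (adjusted p = 0.011), without the 24 h siCAG library it was -3.61 (adjusted p = 0.000124) and without the 48 h siCAG library -2.61 (adjusted p = 0.000384). The call was lost without the 24 h siNT1 library (-3.06, adjusted p = 0.0758) or the 48 h one (-3.06, 0.0731), with the fold change as large. The HeyA8 siCAG libraries stood apart over all genes, and the part of this in the result was not tested.

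The other 5 genes tested in HeyA8 cells were not called after siCAG. INHBA had 86.0 and 208.9 CPM after siCAG, above all 6 other HeyA8 libraries (13.7 to 57.2 CPM), with a log2 fold change of 1.51 (SE 0.707, edgeR adjusted p = 0.207). TGFB2 was at 0.639 CPM at 24 h and 8.71 CPM at 48 h, so the siCAG libraries lay on both sides of siNT1 (1.07 and 1.05 CPM). FSTL3 had 48.8 and 29.5 CPM (-0.55, SE 0.375), and the fitted values of BMP2 (-0.02) and FST (0.11) averaged opposite directions at the 2 times. BMP2 had 31.4 CPM after siCAG against 13.2 after siNT1 at 24 h and 19.0 against 37.0 at 48 h, and its value ran from -0.74 to 0.79 on leaving out 1 library, that of FST from -0.63 to 0.68. The values of INHBA and TGFB2 also changed with the library left out. Without the 48 h siCAG library INHBA was at 0.0011 (adjusted p = 0.999) and TGFB2 at -1.29 (adjusted p = 0.195). Without the 24 h siCAG library INHBA was at 2.38 and TGFB2 at 3.30, and both were called higher, in a fit that called 2022 genes higher and 2498 lower over the whole table.

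In PC3 cells 0.0396% of 15136 genes were called higher and 1.16% lower after siCAG. Over all genes 2037 had an unadjusted p under 0.05, and DESeq2 called 114 higher and 458 lower. Of the 8 genes other than FSTL1 0 were called by edgeR, 2 had an unadjusted p under 0.05 and DESeq2 called 1. BMP4 was closest, with 6.07 and 11.1 CPM after siCAG against 3.46 and 4.42 after siNT1, without overlap (log2 fold change 1.07, SE 0.254, edgeR adjusted p = 0.126; DESeq2 called it). TGFB1 had 36.6 and 30.1 CPM against 67.4 and 49.0 CPM after siNT1, lower without overlap (-0.81, SE 0.29, edgeR adjusted p = 0.279). INHBA, INHBB, TGFB2, FST and FSTL3 differed by less than 0.19 on the log2 scale, and BMP2, with few reads, by 0.70 (SE 0.571). With only the 4 libraries compared TGFB1 (-0.82, adjusted p = 6e-04) and BMP4 (1.06, 0.00326) were called, in a fit that called 722 genes higher and 1624 lower over the whole table. With mock as the control BMP4 was called (1.43, adjusted p = 0.035), TGFB1 was at -0.57 (0.305), and INHBA and TGFB2 were at 0.92 and 1.38 (0.0849 and 0.0626). That fit called 125 genes higher and 266 lower over the whole table.

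Whether PC3 and HeyA8 cells responded differently to siCAG was asked with an interaction term. Across 15887 genes 0.384% were called with a higher response in PC3 cells and 0.252% with a lower one, and the median of all genes was -0.125. Over all genes 2327 had an unadjusted p under 0.05, and DESeq2 called 339 higher and 332 lower. INHBB and BMP4 were below the count filter within HeyA8 cells and entered these fits only through PC3, so no test is read for them. Of the genes other than FSTL1, INHBB and BMP4, 0 were called and 1 had an unadjusted p under 0.05. This was TGFB1, with a difference of 2.11 (SE 0.503, unadjusted p = 0.0015, edgeR adjusted p = 0.0991), and DESeq2 called it. For siGGGGGC edgeR called 0 of 15887 genes in either direction (0% and 0%), with 1054 at an unadjusted p under 0.05, and DESeq2 called 6 and 9. Of the genes other than FSTL1, INHBB and BMP4, BMP2 had the lowest unadjusted p, with a difference of 1.88 (SE 0.935, edgeR unadjusted p = 0.0698). It had few reads in PC3 cells. The smaller TGFB1 response of PC3 cells thus did not pass edgeR's test of the difference.

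Because the letters CAG pair with CTG, runs of CTG were counted in the coding sequences. FST had the longest of the 9 genes, 4 in a row, and TGFB1 had 2 in a row. The share over all genes was taken from the longest run in either the coding sequence or the 3′ UTR, by which FST also had 4. At least 4 in a row were reached by 2.7% of tested genes in PC3 and 2.55% in HeyA8 cells. No share is given for coding sequences alone. The sequence of siCAG is not given in the sources used here, so no pairing was tested. The runs are shown in capitals with 6 bases on each side:
FST, chr5:53480831-53480842, plus strand: tgcctcCTGCTGCTGCTGctctgc
TGFB1, chr19:41353018-41353023, minus strand: ctgcggCTGCTGccgctg

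**Figure D3:**
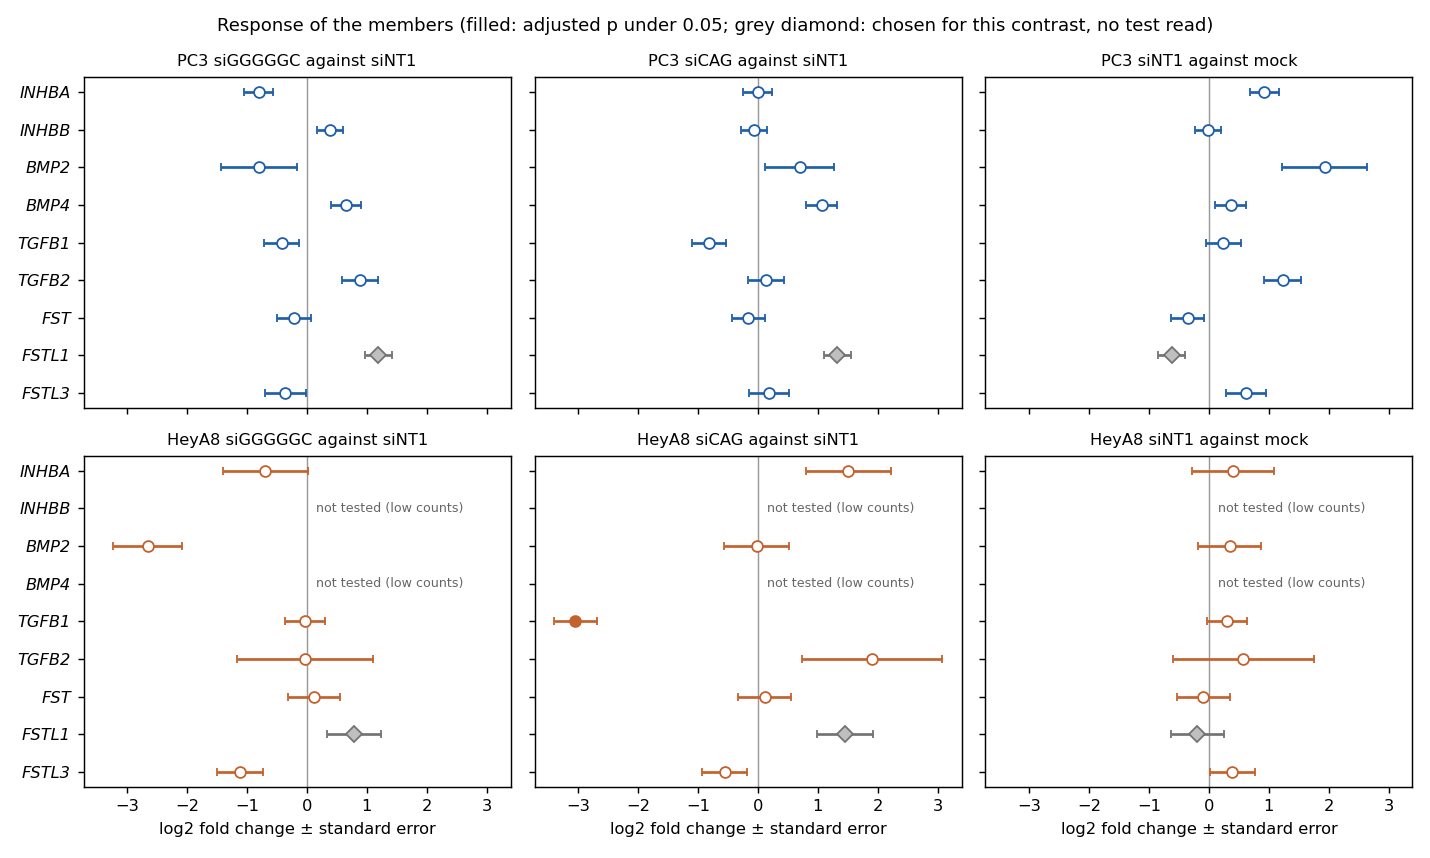
Log2 fold change with its standard error for the 9 genes in the 3 siRNA comparisons of PC3 (top) and HeyA8 cells (bottom). TGFB1 after siCAG in HeyA8 cells is the filled point (edgeR adjusted p under 0.05); grey diamonds mark FSTL1, for which no test is read.

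The control siRNA itself was compared with mock treatment. In PC3 cells 0.205% of 15136 genes were called higher and 0.0264% lower after siNT1, with 1364 at an unadjusted p under 0.05. There DESeq2 called 175 higher and 93 lower. In HeyA8 cells 0% and 0% were called, with 177 at an unadjusted p under 0.05, and DESeq2 called 0 higher and 1 lower. Of the family other than FSTL1 0 were called by edgeR, with 3 in PC3 and 0 in HeyA8 cells at an unadjusted p under 0.05. TGFB2 had 46.8 and 22.3 CPM in PC3 mock cells and 83.2 and 75.0 after siNT1 (log2 fold change 1.24, SE 0.308, edgeR adjusted p = 0.239), and INHBA 41.7 and 25.6 CPM against 79.5 and 47.8 (0.93, SE 0.24, adjusted p = 0.265). For both the siNT1 libraries were above the mock libraries, and DESeq2 called both. With only the 4 HeyA8 libraries compared INHBA (0.41, adjusted p = 0.000771), TGFB1 (0.31, 0.0108) and FSTL3 (0.39, 0.00205) were called higher after siNT1, in a fit that called 903 genes higher and 671 lower over the whole table.

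The response of PC3 cells to siGGGGGC depended on the control for several of the genes. With mock in place of siNT1 the log2 fold change of INHBA went from -0.80 to 0.12, that of FSTL3 from -0.36 to 0.26 and that of BMP2, with few reads, from -0.80 to 1.14. TGFB2 went from 0.88 to 2.12 (adjusted p = 0.00808) and BMP4 from 0.65 to 1.015 (0.0315), and these 2 were called. That fit called 1337 genes higher and 1863 lower over the whole table. In HeyA8 cells TGFB1 went from -0.03 to 0.27 and TGFB2 from -0.04 to 0.54, neither of them called.

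Between 24 and 48 h, over the 4 treatments, edgeR called 0% of PC3 genes higher and 0.0264% lower (2032 at an unadjusted p under 0.05; 93 and 115 by DESeq2), and 0% and 0% of HeyA8 genes (879 at an unadjusted p under 0.05; 28 and 33 by DESeq2), with 0 of the family by edgeR and INHBA in PC3 cells by DESeq2. In PC3 cells INHBA (-0.80, SE 0.17), FSTL3 (-0.66, SE 0.245), FST (-0.64, SE 0.199) and TGFB1 (-0.52, SE 0.207) had unadjusted p-values under 0.05 and adjusted p-values of 0.276 to 0.357, all lower at 48 h. The other 5 PC3 genes lay between -0.41 (BMP2) and 0.37 (BMP4). In HeyA8 cells FSTL3 was at -0.67 (SE 0.27, adjusted p = 0.724), and the other 6 tested genes lay between -0.42 (INHBA) and 0.35 (BMP2). With only the mock and siNT1 libraries of HeyA8 cells 4 of the 7 genes were called: BMP2 higher at 48 h (1.21, adjusted p = 6.82e-19, against 0.35 over all treatments), and INHBA (-0.50, 1.89e-05), TGFB1 (-0.32, 0.00727) and FSTL1 (-0.64, 9.36e-11) lower, in a fit that called 692 genes higher and 899 lower.

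The rest of the pathway was read from lists of 107 further genes: other ligands, receptors, SMADs, extracellular antagonists, intracellular inhibitors, processing enzymes and target genes. In PC3 cells after siGGGGGC, 5 of 74 tested genes were called higher (6.76%, against 3.67% of all genes) and 3 lower (4.05%, against 6%). Of 11 tested BMP target genes 3 rose, ID1, ID3 and SMAD7, with a list median of 0.174 against 0.00289 for all genes. Of 14 activin and TGF-beta target genes 2 rose, CTGF and SMAD7, with a list median of -0.107.

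ID1 and ID3 encode inhibitors of helix-loop-helix transcription factors and are direct BMP targets. ID1 had 179.0 and 51.9 CPM after siNT1 and 369.9 and 161.2 after siGGGGGC (log2 fold change 1.29, SE 0.225, edgeR adjusted p = 0.0211). ID3 had 45.8 and 16.9 CPM against 92.8 and 75.1 (1.57, SE 0.321, adjusted p = 0.0306). At each time the siGGGGGC library was the higher one; for ID1 the groups overlapped because both levels were lower at 48 h.

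SMAD7, the inhibitory SMAD induced by both branches, had 3.33 and 1.69 CPM after siNT1 and 8.71 and 10.7 after siGGGGGC (log2 fold change 2.0035, SE 0.404, edgeR adjusted p = 0.0298). CTGF, a matrix-associated growth factor, had 39.4 and 39.2 CPM against 105.2 and 310.3 (2.32, SE 0.461, adjusted p = 0.0287). CTGF is also a known target of the YAP and TEAD factors. AMH, the anti-Müllerian hormone, was the remaining gene that rose, below the level set for naming genes.

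Of the genes that fell, FURIN encodes the convertase that cuts TGF-beta and BMP precursors, and had 39.5 and 43.4 CPM after siNT1 and 21.0 and 16.1 after siGGGGGC (log2 fold change -1.19, SE 0.178, edgeR adjusted p = 0.0147). TWSG1, a secreted BMP-binding protein, had 144.5 and 126.1 CPM against 67.2 and 72.0 (-0.97, SE 0.224, adjusted p = 0.0396). For both genes the groups did not overlap. BMP3 was the other gene that fell, at low counts. No receptor and no signal-transducing SMAD was called, of 14 and 6 tested.

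These calls of pathway genes depended on single libraries and on the term for time. Without either 1 of the siNT1 libraries, 0 of the 74 genes were called in either direction, nor was any other gene of the table, while the fold changes stayed in the same direction (without the 24 and the 48 h siNT1 library, ID1 1.69 and 0.94, ID3 1.92 and 1.23, SMAD7 2.41 and 1.64, CTGF 2.50 and 2.09, FURIN -1.33 and -1.06, TWSG1 -0.97 and -0.97). Without the 48 h siGGGGGC library 1 was called higher and 1 lower, without the 24 h one 12 higher and 9 lower, and by DESeq2 10 higher and 5 lower. With only the libraries compared FURIN (adjusted p = 0.0505) and TWSG1 (0.0561) were not called, and with no term for time 1 was called higher, with ID1 (adjusted p = 0.264), ID3 (0.147), SMAD7 (0.052) and TWSG1 (0.0604) no longer called. With mock as the control 14 were called higher and 6 lower, in a fit that called 1337 and 1863 over the whole table. Markers moved as well, since HOXB13 was lower after siGGGGGC in PC3 cells (-1.31, SE 0.238, edgeR adjusted p = 0.0233); its part in the result was not tested.

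**Figure D4:**
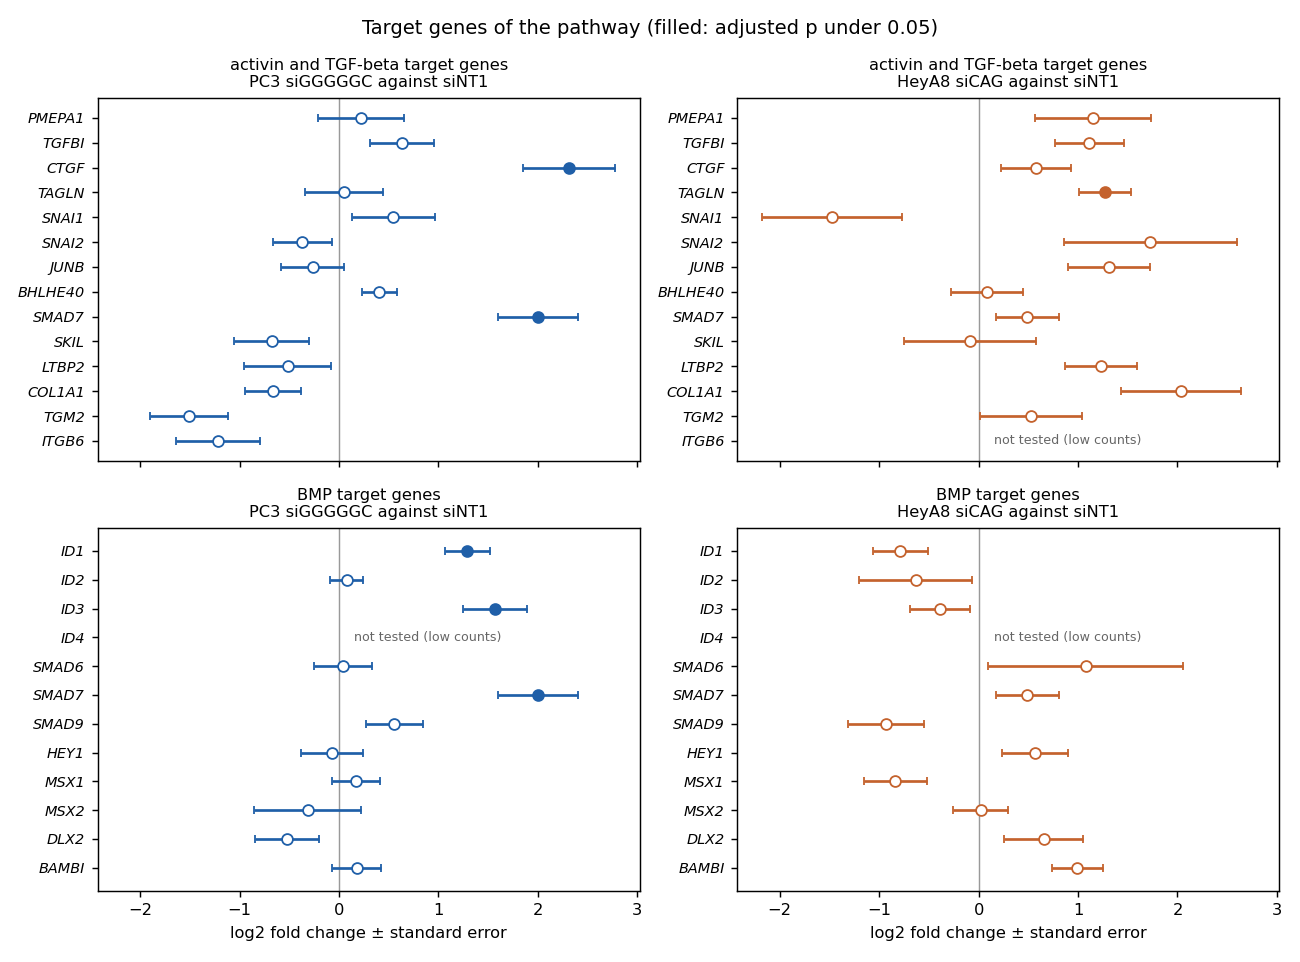
Log2 fold change with its standard error for activin and TGF-beta target genes (top) and BMP target genes (bottom) after siGGGGGC in PC3 cells (left) and after siCAG in HeyA8 cells (right); filled points passed edgeR's test. CTGF, SMAD7, ID1 and ID3 are filled for siGGGGGC in PC3 cells and TAGLN for siCAG in HeyA8 cells.

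In HeyA8 cells after siCAG, 3 of 70 tested pathway genes rose (4.29%, against 2.88% of all genes) and 1 fell (1.43%, against 4.93%). GDF15, a stress-induced ligand of the superfamily, rose from 2.70 and 1.98 CPM after siNT1 to 25.1 and 32.5 after siCAG (log2 fold change 3.52, SE 0.381, edgeR adjusted p = 0.00735). TGIF1, a corepressor of SMAD proteins, rose from 27.0 and 39.9 to 62.9 and 100.4 CPM (1.14, SE 0.241, adjusted p = 0.0404). TAGLN, an actin-binding protein of contractile cells, had 10.7 and 3.64 CPM after siNT1 and 24.5 and 11.2 after siCAG (1.27, SE 0.26, adjusted p = 0.0382). Neither GDF15 nor TGIF1 overlapped between the groups. Both siCAG libraries stood apart over all genes. Of the mesenchymal markers FN1 had a mean of 11410 CPM after siCAG against 4074 after siNT1, and CDH2 198.1 against 152.5. VIM had 6361 against 6925 and ZEB1 122.4 against 163.3. The part of these in the result was not tested.

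LTBP3, which holds latent TGF-beta in the matrix, fell from 11.8 and 5.38 CPM after siNT1 to 1.88 and 1.95 after siCAG in HeyA8 cells (log2 fold change -2.16, SE 0.388, edgeR adjusted p = 0.0293). The list of activin and TGF-beta target genes had 1 of 13 called (TAGLN) and a median of 1.114, against -0.0108 for all genes. In PC3 cells this list had a median of 0.925 after siNT1 against mock and of 0.559 after siCAG, with 0 called. It was at 0.278 in HeyA8 cells after siNT1 against mock, and at -0.107 in PC3 and -0.377 in HeyA8 cells after siGGGGGC. The BMP target genes had 0 of 11 called after siCAG in HeyA8 cells and a median of 0.021. Without either 1 of the siNT1 libraries, 0 of the 70 genes were called in either direction, while the log2 fold changes stayed at 3.70 and 3.31 for GDF15, 1.18 and 1.08 for TGIF1, 1.43 and 1.10 for TAGLN and -1.89 and -2.44 for LTBP3. TGIF1 and TAGLN were also not called with no term for time (adjusted p = 0.108 and 0.311) or with only the libraries compared (0.14 and 0.114). The counts also rose on leaving out a siCAG library, to 16 higher and 9 lower without the 24 h one and to 6 higher and 16 lower without the 48 h one (2022 and 2498, and 1571 and 3119, over the whole table), and DESeq2 called 9 higher and 3 lower, so the small share that fell rests on the libraries used.

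In PC3 cells after siCAG 1 of 74 pathway genes fell, RGMB, a BMP co-receptor, from 91.3 and 113.4 CPM after siNT1 to 41.2 and 37.9 (log2 fold change -1.41, SE 0.202, edgeR adjusted p = 0.0188); against mock it was -0.67 (adjusted p = 0.117), and its call was also lost without the 24 h siCAG (0.0877), the 48 h siCAG (0.229) or the 48 h siNT1 library (0.365). Other settings called more of the 74: 8 higher and 10 lower with only the libraries compared, 6 higher with mock as the control and 4 lower by DESeq2. Over the whole table these fits called, in that order, 722 higher and 1624 lower, 125 and 266, and 114 and 458, against 6 and 176. After siNT1 against mock 1 of 74 rose, THBS1, an activator of latent TGF-beta, from 116.0 and 58.96 to 360.2 and 262.3 CPM (1.89, SE 0.203, adjusted p = 0.0303), a call that was lost without any 1 of the 4 libraries and with no term for time (adjusted p = 0.165). DESeq2 called 7 higher there, the fit of only the libraries compared 6 and that with no filter on low counts 3. Over the whole table these fits called 175, 156 and 61 genes higher, against 31. In HeyA8 cells edgeR called 0 of 70 after siGGGGGC (12 at an unadjusted p under 0.05; DESeq2 called 1 lower) and 0 after siNT1 (2 at an unadjusted p under 0.05). Over all 13872 tested genes 1352 and 177 had an unadjusted p under 0.05, and DESeq2 called 263 lower after siGGGGGC. With only the libraries compared 2 were called higher and 7 lower after siGGGGGC, and 13 higher and 1 lower after siNT1. Over the whole table these fits called 411 higher and 769 lower after siGGGGGC, and 903 and 671 after siNT1.

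Between the lines, 26 of 80 tested pathway genes were called higher in PC3 (32.5%, against 29% of all genes) and 25 lower (31.2%, against 22%). Within the lines, 74 pathway genes passed the count filter in PC3 and 70 in HeyA8 cells. Some of the 80 thus entered the fit only through the line where they are high, as BMP4 did. The counts of calls between the lines, here and by list below, include such genes and are a description. Without the 24 h HeyA8 mock library 17 were called higher and without the 48 h one 15, in fits that called 2856 and 2731 genes higher over the whole table, against 4608. Of the list of other ligands of the superfamily GDF15 (log2 fold change 3.97) and TGFB3 (3.29) were higher and AMH (-1.65) lower. Of the receptors and co-receptors 2 were higher, among them BMPR1B (1.23), and 6 lower, with ENG (endoglin) at -5.60, RGMB at -1.96, TGFBR3 at -1.95 and TGFBR2 at -1.40. SMAD3, which carries activin and TGF-beta signals, was higher in PC3 cells (2.75, SE 0.272) and SMAD9, of the BMP branch, lower (-1.11, SE 0.342).

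Extracellular antagonists and latency proteins were called in both directions, 5 higher and 5 lower of 12. Of this list 10 genes passed the count filter within PC3 and 11 within HeyA8 cells. The 12 thus include genes that entered the fit through 1 line only. The values of this list are therefore given as a description. The BMP antagonists CHRDL1 (-9.41) and GREM1 (-4.35) were lower in PC3 cells, in which FST was higher. LTBP1 (6.85) and THBS1 (3.47) were higher and LTBP2 (-3.18) lower. Among 11 intracellular inhibitors, SMAD6 was higher (7.66) and SMURF2 (-3.16), SMAD7 (-2.92), STRAP (-1.94) and SKIL (-1.78) lower.

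Target genes of the pathway were also called in both directions between the lines. Of 14 activin and TGF-beta target genes 4 were higher in PC3 cells, with PMEPA1 at 4.98, and 7 lower, with TGFBI at -8.41, TGM2 at -3.46, LTBP2 at -3.18 and CTGF at -2.92. Of 12 BMP target genes 4 were higher, with SMAD6 at 7.66, ID2 at 4.61 and HEY1 at 1.41, and 4 lower, with SMAD7 at -2.92 and MSX1 at -2.57. All are log2 fold changes of mock-treated PC3 over HeyA8 cells by edgeR. Of the genes named between the lines, 5 lost their call on leaving out single mock libraries: SMAD9 and SKIL in 3 of 4 such fits (adjusted p of 0.0689 to 0.217 and of 0.0985 to 0.176), BMPR1B in 3 (0.0759 to 0.375, at 0.55 without the 48 h PC3 library), and AMH and HEY1 in 2 each (0.0554 and 0.065, and 0.0679 and 0.0747).

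**Figure D5:**
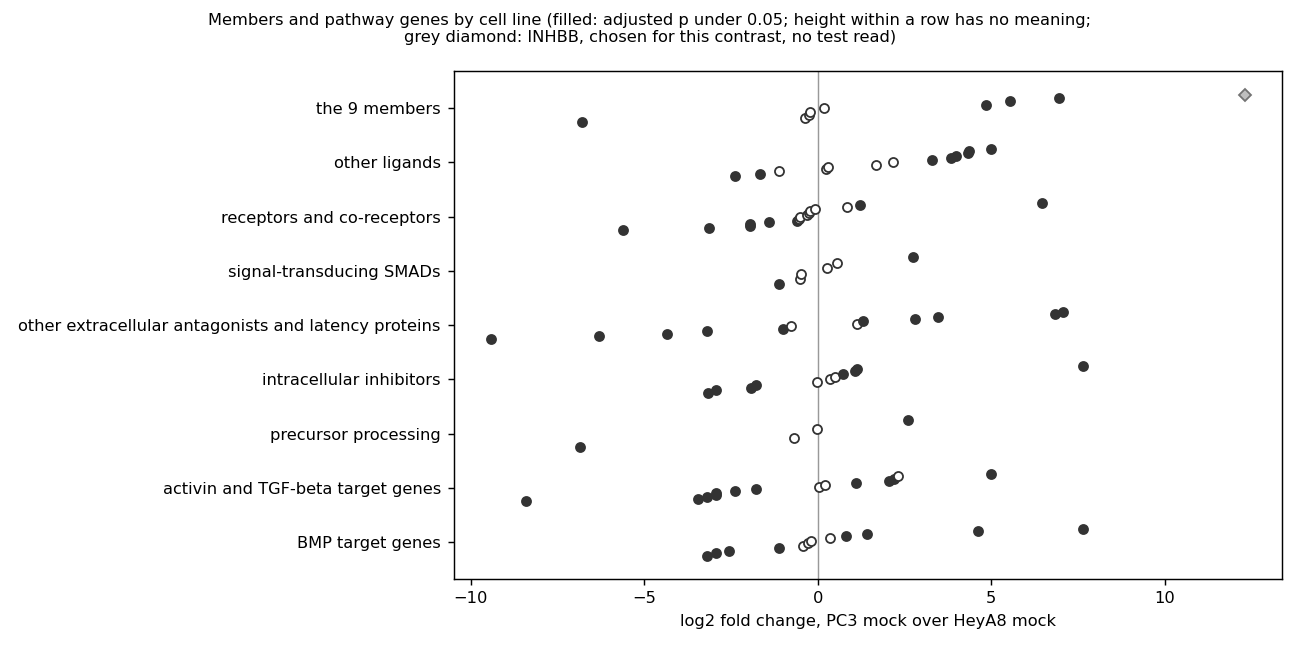
Log2 fold change of mock-treated PC3 over HeyA8 cells for the 9 genes and for 8 lists of pathway genes, 1 point a gene; filled points passed edgeR's test and the grey diamond is INHBB, for which no test is read. No test is read for BMP4 either, which passed the count filter only through PC3. Every list has called genes on both sides of 0. Some points of the lists are genes that also passed the count filter through 1 line only, and their filled marks are a description.

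The genes most like each family member were named by the Pearson correlation of log2 levels. Over 16 libraries with each line's mean removed, and among 10131 genes, INHBA was most like ATP2B4 (r = 0.942) and VDR (0.941), TGFB1 like DSCC1 (0.968) and MCM2 (0.965), FST like HERC2P9 (0.741) and CCNL1 (0.738), FSTL1 like TMEM136 (0.947) and DAZAP2 (0.924) and FSTL3 like PARL (0.927) and CLDN14 (0.918). Over the 8 libraries of PC3 cells, and among 11382 genes, INHBB was most like CDK9 (0.974) and TMEM11 (0.943), BMP4 like LYRM1 (0.981) and OSBP (0.98) and TGFB2 like C15orf48 (0.977) and UGCG (0.969). Over the 8 HeyA8 libraries, and among 10772 genes, BMP2 was most like CTDSP1 (0.981) and ARHGAP17 (0.98). The points share treatments and times, and with ranks in place of values only the genes named for FSTL1 were the same.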

How the data were processed

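Reads were counted per gene in 16 libraries. The counts were used as the authors deposited them, as whole numbers without normalization; per the labels and the study's methods, reads were aligned to hg38 with STAR (the methods name Tophat or STAR) and counted on exons with HTSeq. The file held 26485 genes and 0 columns of no sample. Its gene lengths gave RPKM.

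Groups came from the labels. Counts were fitted in R 4.3.3 with edgeR 4.0.16: filterByExpr, TMM, and a quasi-likelihood test with treatment and time as terms, over the 8 libraries of a line (3 residual degrees of freedom) or, for comparisons of lines, over all 16 with 8 groups and time within each line, centred between the time points. The 24 and 48 h libraries of a condition carry a shared time across treatments, so time served as the replicate block. p-values were adjusted by Benjamini-Hochberg over all genes tested, and a gene was called under 0.05. CPM used TMM-scaled sizes over all 16 libraries. Single-time log2 ratios used a pseudocount of 0.5 CPM. Standard errors are the fold change over the root of the F statistic. The fit was also run on simulated data, of which no result is given here.

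The 9 genes, the pathway lists and the rule for naming were chosen with earlier results of these data known. Of the 9 genes, those past the count filter were fitted in each comparison (INHBB and BMP4 fell below it within HeyA8), and not all values of genes that were not called are printed; of each list, called genes with a mean of at least 100 normalized counts were named, at most 5 by absolute fold change, and those called below 100 were named after their values were seen. Likeness used the 2 genes with the highest Pearson correlation. Alternatives were RLE size factors, no count filter, DESeq2 1.42.0, no term for time, only the libraries compared, mock as the control, each library left out and, added later, no siCAG libraries. Figures were drawn with matplotlib 3.10.9 in Python 3.11.15.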

Additional observations from a re-analysis of the deposited data

Results flagged for a closer look

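A pair of results drew attention because a response differed between the lines. FSTL3 after siCAG was above siNT1 in PC3 cells at both times (log2 ratios 0.023 at 24 h and 0.353 at 48 h) and below it in HeyA8 cells at both times (-0.117 and -0.665). The fitted difference between the lines was 0.635 (SE 0.566, edgeR unadjusted p = 0.286, adjusted p = 0.679), so it did not pass the test.

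GDF15 after siCAG had 72.6 and 80.0 CPM in PC3 cells, against 101.0 and 87.3 after siNT1, and 25.1 and 32.5 CPM in HeyA8 cells, against 2.70 and 1.98. The fitted difference between the lines was -3.92 (SE 0.678, edgeR adjusted p = 0.0308), lower in PC3 cells. The call was lost with only the 8 libraries compared (adjusted p = 0.226) and without any 1 of the PC3 siNT1, PC3 siCAG or HeyA8 siNT1 libraries (adjusted p of 0.0843 to 0.255), while the difference was kept between -4.30 and -3.61 in these fits.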

How the results depend on the processing

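Counts of called genes moved with the processing. PC3 siGGGGGC against siNT1 (555 higher, 908 lower) gave 1135 and 1684 with DESeq2, 177 and 448 with no term for time, 75 and 363 with only the libraries compared, 1337 and 1863 with mock as the control, 327 higher without both siCAG libraries (an alternative chosen after seeing the data), and 0 to 1591 and 0 to 2111 on leaving out 1 library. PC3 siCAG (6 and 176) gave 22 higher with no filter on low counts, 114 and 458 with DESeq2, 722 and 1624 with only the libraries compared, 125 and 266 with mock, and 0 to 11 and 30 to 114 on leaving out 1. PC3 siNT1 against mock (31 and 4) gave 61 and 21 with no filter, 175 and 93 with DESeq2, 6 and 0 with no time term, 156 and 97 with only the libraries compared, and 0 without any 1. PC3 time (0 and 4) gave 93 and 115 with DESeq2, 4 higher with only mock and siNT1, 9 lower with no filter, and 0 to 6 lower on leaving out 1. HeyA8 siGGGGGC (0 and 0) gave 55 and 263 with DESeq2, 411 and 769 with only the libraries compared, 130 and 347 without both siCAG libraries, and 18 lower with no filter and 3 with no time term. HeyA8 siCAG (399 and 684) gave 1150 and 1507 with DESeq2, 148 and 432 with only the libraries compared, and 0 to 2022 and 42 to 3119 on leaving out 1. HeyA8 siNT1 against mock (0 and 0) gave 903 and 671 with only the libraries compared and 1 lower with DESeq2. HeyA8 time (0 and 0) gave 28 and 33 with DESeq2, 692 and 899 with only mock and siNT1, and 0 to 6 and 0 to 5 on leaving out 1. Between the lines (4608 and 3490), only the libraries compared gave 5377 lower, and leaving out 1 gave 2731 to 3575 and 2101 to 2586. The siGGGGGC response by line (0 and 0) gave 6 and 9 with DESeq2. The siCAG response by line (61 and 40) gave 339 and 332 with DESeq2, 33 and 18 with no time term, 0 and 0 with only the libraries compared, and 1 to 790 and 0 to 730 on leaving out 1. FSTL1 at 48 against 24 h in HeyA8 cells reversed, from 0.03 to -0.64 (adjusted p = 9.36e-11), with only mock and siNT1. The causes were not tested. With no time term, that is, without the replicate block, the calls of TGFB1 after siCAG in HeyA8 cells and of BMP2, TGFB2 and FST between the lines were kept. ID1, ID3, SMAD7 and TWSG1 (PC3 siGGGGGC), THBS1 (PC3 siNT1) and TGIF1 and TAGLN (HeyA8 siCAG) lost theirs (adjusted p of 0.052 to 0.311). Leaving out 1 library leaves a group with 1, assumed to vary like the others. Genes with few reads (BMP2 in PC3, BMP4 and INHBB in HeyA8 cells) are limited by depth.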
